A study of Mus musculus with 9 samples.

Results

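Prostaglandins and leukotrienes are lipid mediators made from arachidonic acid. A set of 10 genes of their synthesis and sensing was examined here in cells grown out of mouse pancreatic tumors: the cyclooxygenases Ptgs1 and Ptgs2, the terminal prostaglandin synthases Ptges, Ptgis and Hpgds, the prostaglandin E2 receptors Ptger2 and Ptger4, and the 5-lipoxygenase genes Alox5, Alox5ap and Ltc4s. They were picked by symbol for their place in the pathway, with earlier results of these data known, and all 10 were found among the 18049 genes listed. In the prostaglandin branch, a cyclooxygenase turns arachidonic acid into prostaglandin H2, and the terminal synthase present in the cell sets which mediator follows: Ptges gives prostaglandin E2, Ptgis gives prostacyclin and Hpgds gives prostaglandin D2. In the leukotriene branch, 5-lipoxygenase (Alox5) works with its partner protein (Alox5ap) to make leukotriene A4, to which leukotriene C4 synthase (Ltc4s) adds glutathione. Ptgs2, Ptges and prostaglandin E2 are known from pancreatic and other tumors as products of inflamed stroma, while Hpgds, Alox5 and Alox5ap are known from cells of the blood lineage.

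The promoter sequences of 4 of these genes are printed because their levels carry most of the results: Ptgs2, which ranged most widely, Ptges, which acts on its product, Ptgs1, the other cyclooxygenase, and Hpgds, whose relation to macrophage markers is described further on. RefSeq promoter entries (GRCm38.p6) were matched by symbol for 8 of the 10 genes. Each window runs 5′ to 3′ on the strand of the gene from 120 bases before the annotated start to 30 bases from it. Capitals mark matches to the motifs searched on both strands. Positions count the annotated start as the first base, are negative before it and leave out position 0. The windows lie at chr1:150099911-150100060 (plus strand, Ptgs2), chr2:30903268-30903417 (minus strand, Ptges), chr2:36230306-36230455 (plus strand, Ptgs1) and chr6:65144701-65144850 (minus strand, Hpgds). For Ptges, Ptgs1 and Hpgds this start lies inside the annotated span of the gene.
Ptgs2: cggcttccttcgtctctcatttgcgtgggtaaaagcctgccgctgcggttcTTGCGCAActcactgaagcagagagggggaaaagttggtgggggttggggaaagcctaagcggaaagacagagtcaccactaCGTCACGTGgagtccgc
Ptges: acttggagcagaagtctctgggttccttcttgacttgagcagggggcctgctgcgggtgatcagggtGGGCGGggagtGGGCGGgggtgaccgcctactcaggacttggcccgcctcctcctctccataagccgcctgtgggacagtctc
Ptgs1: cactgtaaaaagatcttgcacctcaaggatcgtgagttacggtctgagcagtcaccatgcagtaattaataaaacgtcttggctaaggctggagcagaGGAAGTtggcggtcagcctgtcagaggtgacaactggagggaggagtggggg
Hpgds: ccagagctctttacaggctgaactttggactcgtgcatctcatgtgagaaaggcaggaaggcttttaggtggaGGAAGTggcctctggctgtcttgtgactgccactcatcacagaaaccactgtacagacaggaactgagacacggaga

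The Ptgs2 window held the C/EBP motif TTGCGCAA at position -69, and, overlapping each other, the cAMP response element core CGTCA at 14 and the E-box CACGTG at 17. The Ptges window held the GC box GGGCGG at -53 and again at -42. The ETS motif GGAAGT stood at -22 in Ptgs1 and at -47 in Hpgds. Among 32851 RefSeq promoter windows of the same length, 5.02% held TTGCNNAA, 14.0% held CGTCA, 4.47% held CACGTG, 29.1% held GGGCGG and 14.5% held GGAAGT. Of the windows not printed, those of Ptger4 and Alox5 held the GC box, that of Ltc4s held the ETS motif, and that of Ptger2 held no motif searched. The NF-kB motif, found in 0.773% of all windows, and the TATA box TATAAA, found in 7.16%, matched none of the 8. These matches describe the letters of the windows, and binding at them was not measured.

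The RNA came from 9 clones of mouse cells grown in culture from tumors of WTg mice (MPC), and was sequenced in bulk. All 9 carry the same genotype, EL1-Luc/EL1-Tag x CAG-Mettl3, so that firefly luciferase and the SV40 large T antigen are under the acinar Elastase I promoter and the broadly active CAG promoter drives Mettl3, the m6A RNA methyltransferase. Minced tumor was plated in DMEM with 10% FBS, and separate colonies were picked with cloning cylinders. The treatment is given as none, although a protocol field of the same labels names NMS-P937 at 80 nM for 24 h. All clones therefore form 1 condition, no control group of this series was analysed here, and the comparisons below are between clones. How many mice or tumors gave the clones is not stated in the sources used here. Each p-value treats the 9 clones as independent, and clones that share a mouse or tumor can make it too small. No p-value extends beyond these clones. The columns carry 3 name prefixes whose meaning is not stated. Clones are called A1 (the single clone with the first prefix), B1 to B4 and C1 to C4 by prefix and column order, and none could be tied to a numbered sample title. Xist, the RNA of the inactive X chromosome, was 29664 to 32912 normalized counts in the B clones and 0 to 8.39 in the others, so prefix B and the sex of the donor animal cannot be told apart.

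Levels are normalized counts, that is, reads multiplied by 1 scaling factor per library. Between 12198037 (A1) and 20453901 (B4) reads were recovered per library, 1 read was worth 1.26 to 2.19 normalized counts, and a floor of 3 reads corresponded to 3.79 to 6.56 normalized counts. No library was a copy of another, since the closest pair, B1 and B4, had a chi-square statistic over their genes of 22.6 for each degree of freedom. The labels call the cells fibroblasts. Of 12 fibroblast markers, 11 were above the floor in every clone, with a summed level of 327614 (B3) to 920066 (C2) normalized counts. However, all 12 macrophage markers, Lyz2 and Csf1r included, were also above it in every clone, at a summed level of 565940 (C2) to 893908 (C4). Of all genes listed, 75.0% were above the floor in every clone. Single genes weigh heavily in these sums, with Lyz2 at 577311 in C4 and Fn1 at 432514 in C2. The mean z-score of the 12 macrophage markers, which weighs them equally, was highest in B3 (1.07) and was 0.36 in C4. Markers of other cells that make or sense these lipids were scarce: the summed level was 0 to 28.9 for the 2 mast cell markers listed of 7, 2.19 to 24.6 for the 1 neutrophil marker listed of 6, and 34.4 to 76.6 for the 3 megakaryocyte markers listed of 5. Summed endothelial markers reached 156 to 429, of which Kdr alone was 142 to 395. Epithelial markers reached 20.3 to 188, mostly from Krt19 and Cdh1, with Epcam at 0. Smooth muscle markers reached 9057 to 36552. In bulk RNA, fewer cells of a type and less RNA per cell cannot be told apart.

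All 10 genes were above the floor of 3 reads in all 9 clones, as were 75.0% of the genes listed. Their spread between clones was wide. In 4 of the 10 (Ptgs2, Ptgis, Alox5 and Ltc4s) the highest clone was at least 4 times the lowest, against 9.72% of the 12301 genes averaging 50 normalized counts or more. The median ratio of highest to lowest clone was 3.28 for the 10 genes and 1.56 over those 12301 genes, and the median SD of log2 levels was 0.58 and 0.21. Alox5ap varied least of the 10, with an SD at the 47.3rd percentile.

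**Figure D1:**
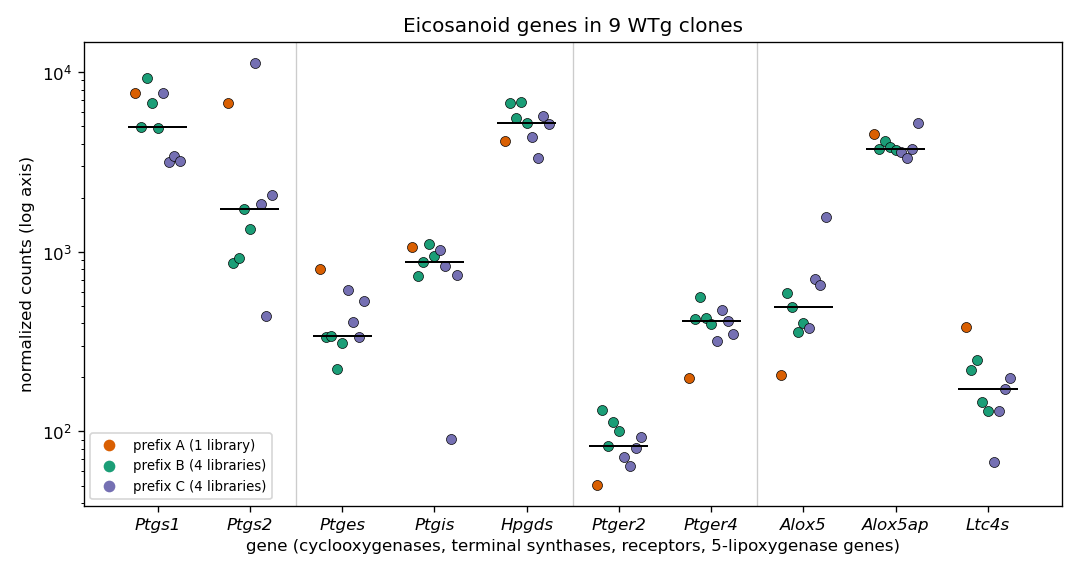
Level of each of the 10 genes in normalized counts (log axis), with 1 point per clone colored by column name prefix and a bar at the median. Ptgs2 spans 439 to 11188 and Alox5ap 3350 to 5247, while the single low point of Ptgis is C3 at 90.9.

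Ptgs2, the inducible cyclooxygenase, varied most of the 10 genes. Its level was 6729 normalized counts in A1, 865, 920, 1731 and 1348 in B1 to B4, and 11188, 1837, 439 and 2076 in C1 to C4 (mean 3015 ± 3587, SD, n = 9). C1 and A1 stood above the other 7 clones, which did not pass 2076, and the highest clone was 25.5 times the lowest. The 95% counting interval was 10953 to 11426 for C1 and 392 to 491 for C3, so the range lay far beyond counting error. The SD of its log2 level was at the 97.9th percentile of the 12301 genes. Without A1 the mean was 2551 ± 3534 (SD, n = 8). Both ends of the range were clones of prefix C, whereas the prefix B clones lay within 865 to 1731.

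Ptgs1, the constitutive cyclooxygenase, was 7622 normalized counts in A1, 4983, 9244, 6783 and 4884 in B1 to B4, and 7628, 3144, 3416 and 3208 in C1 to C4 (mean 5657 ± 2244, SD, n = 9). C2, C3 and C4 formed the low end, and C1 was apart from them within the same prefix. Its range of 2.94-fold was narrower than that of Ptgs2. The ratio of Ptgs2 to Ptgs1 counts within a clone, which carries the unknown lengths of both transcripts and can be set only against the same ratio in another clone, differed by 14.7-fold between clones. It was 1.47 in C1, 0.883 in A1, 0.647 in C4 and 0.584 in C2, and between 0.0995 and 0.276 in B1 to B4 and C3.

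Ptges, the inducible prostaglandin E synthase, had a level of 803 normalized counts in A1, 337, 342, 221 and 310 in B1 to B4, and 613, 404, 337 and 535 in C1 to C4 (mean 434 ± 183, SD, n = 9). A1 and C1, the clones with the most Ptgs2, also had the most Ptges. Over the 9 clones, Ptgs2 and Ptges had Pearson's r = 0.723 (exact permutation p = 0.0286, adjusted 0.216 over 68 relations) and Spearman's rho = 0.717 (exact permutation p = 0.0369, adjusted 0.251). The relation did not pass the adjusted threshold, and r was -0.905 among the 4 B clones and 0.916 among the 4 C clones, a difference that was not tested. Without A1 r was 0.615, and without the 2 clones farthest from the median it was 0.751.

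**Figure D2:**
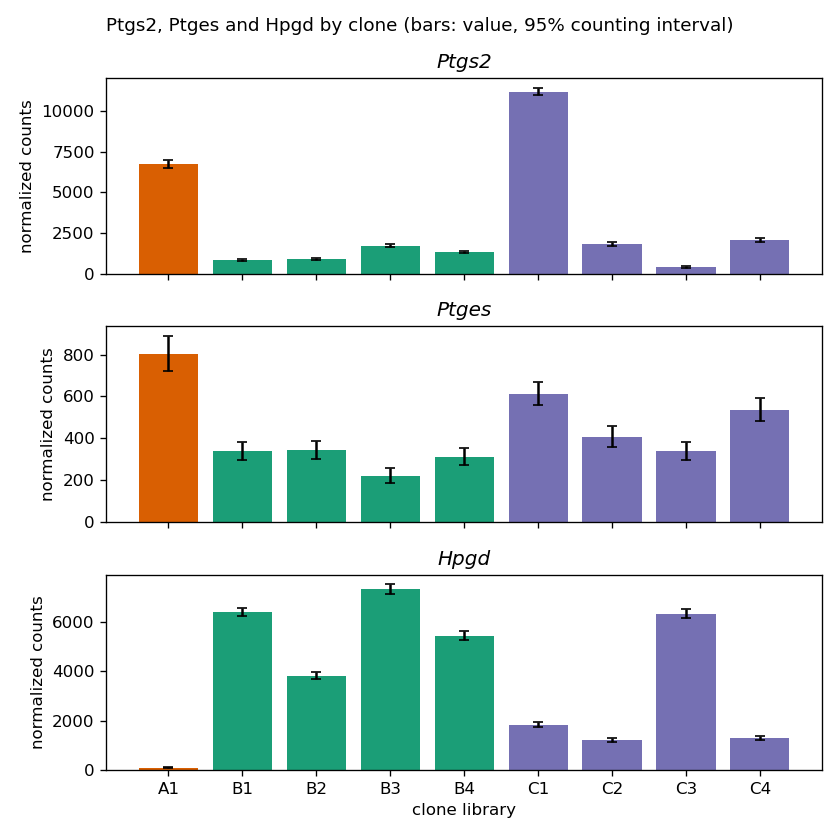
Normalized counts of Ptgs2, Ptges and Hpgd, the prostaglandin-degrading dehydrogenase, in each clone, with bars starting at 0 and error bars for the 95% counting interval. A1 and C1 are the highest for Ptgs2 and Ptges, and A1 has 91.9 for Hpgd where the other clones have 1203 to 7349.

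Ptgis, prostacyclin synthase, was nearly even in 8 clones and low in 1. It was 1063 normalized counts in A1, 733, 881, 1108 and 945 in B1 to B4, and 1023, 835, 90.9 and 746 in C1 to C4 (mean 825 ± 306, SD, n = 9). The value in C3 rested on 65 reads, with a 95% counting interval of 70.2 to 116, while the next lowest clone, B1, had 733. C3 also had the least Ptgs2, but its Ptges (337) and Hpgds (5692) were within the range of the other clones. The ratio of Ptges to Ptgis counts was 3.71 in C3 and 0.1997 to 0.755 in the others.

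Hpgds, the hematopoietic prostaglandin D synthase, varied less than 8 of the other 9 genes, though its SD of log2 levels was at the 71.3rd percentile of the 12301 genes. Its level was 4160 normalized counts in A1, 6719, 5562, 6828 and 5227 in B1 to B4, and 4359, 3345, 5692 and 5119 in C1 to C4 (mean 5224 ± 1149, SD, n = 9), a range of 2.04-fold. The ratio of Ptges to Hpgds counts was highest in A1 (0.193) and C1 (0.141) and lowest in B3 (0.0324). The other prostaglandin D synthase gene, Ptgds, had no read in any clone, so that Hpgds was the prostaglandin D synthase detected at this depth.

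The prostaglandin E2 receptor genes, which both signal through cAMP, were detected in every clone. Ptger2 (EP2) was 50.3 normalized counts in A1, 132, 82.6, 113 and 101 in B1 to B4, and 72.4, 64.0, 81.1 and 93.0 in C1 to C4 (mean 87.7 ± 25.2, SD, n = 9). These values rested on 23 to 104 reads, and the interval of A1 (31.9 to 75.5) overlapped those of B2 and C1 to C4. Ptger4 (EP4) was 199 in A1, 422, 564, 428 and 395 in B1 to B4, and 321, 476, 410 and 349 in C1 to C4 (mean 396 ± 102, SD, n = 9). A1 was lowest for these 2 receptors, Ptger2 and Ptger4. Within the B and the C clones the levels of the receptors were not ranked alike, with r = -0.717 and -0.520, against r = 0.526 (exact permutation p = 0.143, adjusted 0.465) and rho = 0.317 (exact permutation p = 0.410, adjusted 0.845) over all 9 and r = -0.0968 without the 2 clones farthest from the median. Ptgs2 and Ptger4 had r = -0.688 (exact permutation p = 0.0428, adjusted 0.243), rho = -0.583 (exact permutation p = 0.108, adjusted 0.432), r = -0.472 in B, -0.618 in C and -0.892 when the 2 clones farthest from the median were left out.

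Of the leukotriene genes, Alox5ap was steady and Alox5 and Ltc4s were not. Alox5ap, the 5-lipoxygenase activating protein, was 4556 normalized counts in A1, 3735, 4131, 3814 and 3667 in B1 to B4, and 3613, 3350, 3760 and 5247 in C1 to C4 (mean 3986 ± 584, SD, n = 9), a range of 1.57-fold. Alox5 was 206 in A1, 593, 490, 356 and 404 in B1 to B4, and 376, 704, 652 and 1557 in C1 to C4 (mean 593 ± 394, SD, n = 9). C4 stood above all other clones for Alox5 and was also highest for Alox5ap, while A1 was lowest for Alox5 and second highest for its partner. The ratio of Alox5 to Alox5ap counts thus ran from 0.0452 in A1 to 0.297 in C4. Alox5 and Alox5ap had r = 0.274 (exact permutation p = 0.451, adjusted 0.824) and rho = -0.0667 (exact permutation p = 0.880, adjusted 0.965), with r = 0.147 in B, 0.820 in C and -0.303 without the 2 clones farthest from the median.

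Ltc4s had a level of 381 normalized counts in A1, 219, 251, 146 and 130 in B1 to B4, and 67.3, 130, 172 and 199 in C1 to C4 (mean 188 ± 90.5, SD, n = 9). A1 was highest and C1 lowest, and their 95% counting intervals of 326 to 442 and 50.2 to 88.2 did not overlap. Ltc4s and Alox5ap had r = 0.588 (exact permutation p = 0.105, adjusted 0.419) and rho = 0.783 (exact permutation p = 0.0172, adjusted 0.167), with r = 0.710 in B, 0.584 in C and 0.597 without the 2 clones farthest from the median. The clones A1 and C1, alike in high Ptgs2 and Ptges, were therefore at opposite ends for Ltc4s.

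**Figure D3:**
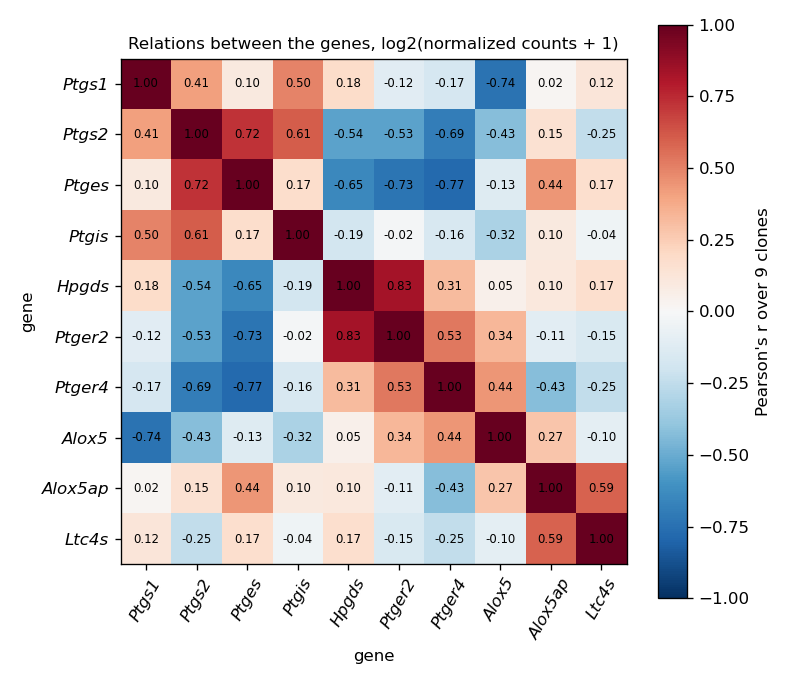
Pearson's r of log2(normalized counts + 1) over the 9 clones for each of the 45 pairs of genes, from -1 (blue) to 1 (red). The most positive pair is Ptger2 with Hpgds (0.833) and the most negative is Ptges with Ptger4 (-0.774). None of the 45 pairs passed the adjusted threshold.

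In all, 68 relations were tested: 45 pairs of the genes, each gene with a macrophage and a fibroblast marker score, and Ptgs2 with the cytokines Il1b, Il6 and Tnf. By Pearson's r, 12 had an unadjusted exact permutation p under 0.05 and 1 passed after adjustment. By Spearman's rho these counts were 11 and 0. The 1 relation that passed by Pearson's r was that of Hpgds with the macrophage score (r = 0.922, exact permutation p = 0.000394, adjusted 0.0268). Its rho was 0.867 (exact permutation p = 0.00451, adjusted 0.138). Its r was 0.926 within B, 0.818 within C, 0.917 without A1 and 0.829 without the 2 clones farthest from the median. The adjusted exact permutation p was over the threshold without A1 (0.0843) and without the 2 clones (0.187). With the B and C clones centred within their prefixes, r was 0.847 (adjusted exact permutation p = 0.725). That test used only pairings within a prefix, too few for a single relation to pass after adjustment over 68, so its p-value decides nothing. Hpgds and the fibroblast score had r = -0.727 (exact permutation p = 0.0266, adjusted 0.216) and rho = -0.667 (exact permutation p = 0.0589, adjusted 0.286), with r = -0.811 in B, -0.376 in C and -0.536 without the 2 clones farthest from the median. The markers and Hpgds share libraries, and the part of the cell mixture in the level of Hpgds was not tested. The genes and marker lists were chosen with earlier results of these data known, so these p-values are not those of a blind choice.

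**Figure D4:**
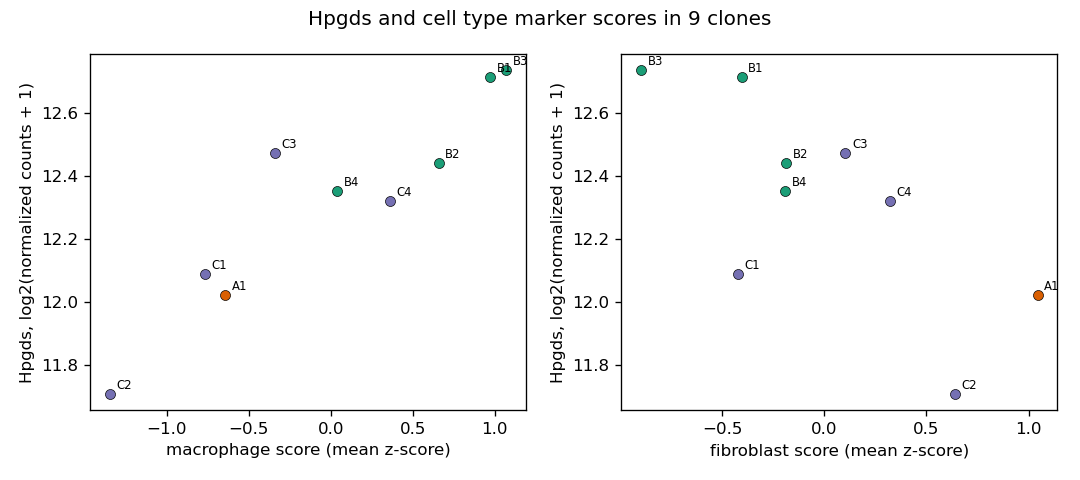
Hpgds, as log2(normalized counts + 1), against the macrophage score (left) and the fibroblast score (right), each the mean z-score of 12 markers, with 1 labelled point per clone. Hpgds is highest in B1 and B3, which have the highest macrophage scores, and lowest in C2, which has the lowest.

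Ptger2 and the same score had r = 0.817 (exact permutation p = 0.00721, adjusted 0.162) and rho = 0.867 (exact permutation p = 0.00451, adjusted 0.138), with r = 0.458 in B, 0.998 in C and 0.865 without the 2 clones farthest from the median. Ptger2 and Hpgds had r = 0.833 (exact permutation p = 0.00562, adjusted 0.162) and rho = 0.817 (exact permutation p = 0.0108, adjusted 0.167), with r = 0.739 in B, 0.844 in C and 0.850 without the 2 clones farthest from the median. Ptges and Ptger4 had r = -0.774 (exact permutation p = 0.0137, adjusted 0.162) and rho = -0.533 (exact permutation p = 0.148, adjusted 0.478), which rested on few clones: r was 0.339 in B, -0.805 in C and -0.273 without the 2 clones farthest from the median. Ptgs1 and Alox5 had r = -0.742 (exact permutation p = 0.0143, adjusted 0.162) and rho = -0.733 (exact permutation p = 0.0311, adjusted 0.251), with r = -0.108 in B, -0.757 in C and -0.869 without the 2 clones farthest from the median. None of these passed after adjustment. Of the cytokines, which are known inducers of Ptgs2, Il1b averaged 36.4 normalized counts, Il6 287 and Tnf 663. Ptgs2 had r = -0.705 with Il1b (exact permutation p = 0.0319, adjusted 0.217), with rho = -0.800 (exact permutation p = 0.0138, adjusted 0.167), r = 0.2999 in B, -0.845 in C and -0.502 without the 2 clones farthest from the median. With Il6, r was 0.514 (exact permutation p = 0.154, adjusted 0.475) and rho 0.667 (exact permutation p = 0.0589, adjusted 0.286), with r = -0.630 in B, 0.716 in C and 0.332 without the 2 clones farthest from the median. With Tnf, r was 0.599 (exact permutation p = 0.0916, adjusted 0.419) and rho 0.550 (exact permutation p = 0.133, adjusted 0.451), with r = 0.812 in B, 0.464 in C and 0.808 without the 2 clones farthest from the median.

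The genes whose pattern over the 9 clones was most like that of each of the 10 were listed by Pearson's r among 12301 genes, as a description without a test. For Ptgs2 these were Slc44a2 (r = 0.955), Tes (0.945) and Abhd14a (0.944). Tes, which encodes a focal adhesion protein, ran from 1637 to 3697 normalized counts, a far narrower range than Ptgs2. Ptges was most like Arntl (0.979), a core gene of the circadian clock that ran from 253 to 422, and Mxra8 (0.944), a matrix remodeling-associated membrane protein. For Hpgds they were Arhgap6 (0.993), Cmtm6 (0.992), known for stabilizing PD-L1, and Ttf1 (0.989). Alox5ap was most like Hebp1 (0.959) and Pld4 (0.922), Alox5 like Susd1 (0.947), Ltc4s like Mdm4 (0.954), Ptger2 like Tprgl (0.981), Ptger4 like Zc3h4 (0.951), Ptgis like Cops7a (0.947) and Ptgs1 like Plxna4os1 (0.920). Without A1, r with Ptger4 of Zc3h4 was 0.855, while r with Hpgds of Arhgap6 was 0.993.

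Beside the 10 genes, a list of 47 others of the pathway was drawn up, of which 41 were in the table. Above the floor in all 9 clones were 28 of the 41, against 75.0% of all genes listed, in some clones 8, and in no clone 5. These 5 were Ptgds, Alox12b, Alox15, Ptgdr2 and Ltb4r2, and the first 2 had no read at all. Of the 26 averaging 50 normalized counts or more, 7 had a highest clone at least 4 times the lowest, against 9.72% of all such genes. The median ratio was 1.79, against 1.56 over all such genes. Pla2g4a, the cytosolic phospholipase that releases arachidonic acid from membranes, ran from 1238 (C3) to 3420 (A1) normalized counts, with C1 at 2585, so that the clones rich in Ptgs2 were also those rich in Pla2g4a, and C3 was lowest for both. This likeness was noticed in the values and was not tested.

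The widest range of the list was that of Hpgd, the 15-hydroxyprostaglandin dehydrogenase that inactivates prostaglandin E2. It was 91.9 normalized counts in A1, from 42 reads, 6410, 3831, 7349 and 5457 in B1 to B4, and 1846, 1203, 6336 and 1308 in C1 to C4 (mean 3759 ± 2718, SD, n = 9), 80.0-fold between the extremes. A1 was thus the clone with the most Ptges and the least Hpgd, and C3, lowest for Ptgs2, was near the top for Hpgd. Slco2a1, which carries prostaglandins into the cell for degradation, ran from 451 (C1) to 3454 (C2). Chosen after their values were seen, Pla2g7 (177 in A1, 524 to 1731 elsewhere) and the leukotriene D4 peptidase gene Dpep1 (25.6 in B2, 718 in A1) also had A1 at 1 end, and Ptgir, Tbxa2r and Ggt5 were the other genes past a 4-fold range.

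**Figure D5:**
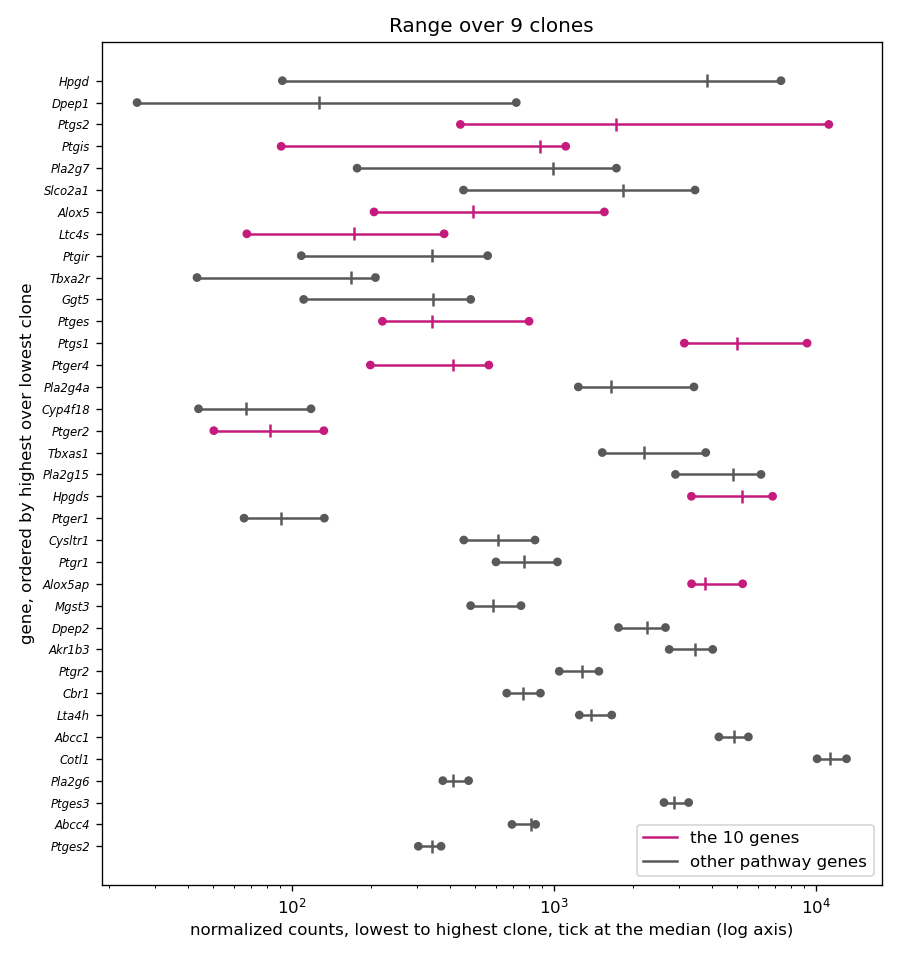
Lowest to highest clone (dots) and median (tick) in normalized counts on a log axis, for the 10 genes and the other pathway genes with a mean of at least 50, ordered by the ratio of highest to lowest. Hpgd is at the top with 80.0-fold, and Ptges3, at 1.24-fold, is near the foot.

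Of the 9 remaining genes named from the list, Tbxas1 and Pla2g15 varied by more than the median ratio of all genes (2.48-fold and 2.12-fold), and the other 7 by less. Cotl1, whose protein binds 5-lipoxygenase, ran from 10091 to 13073 normalized counts, and Abcc1, an exporter of leukotriene C4, from 4258 to 5519. Lta4h, which makes leukotriene B4 from leukotriene A4, ran from 1249 to 1661, and Dpep2, a leukotriene D4 peptidase, from 1762 to 2664. Ptges3, the cytosolic prostaglandin E synthase also known as p23, ran from 2629 to 3265, in contrast to the 3.63-fold range of Ptges. Tbxas1, thromboxane synthase, ran from 1528 to 3794 and the lysosomal phospholipase Pla2g15 from 2908 to 6167. Akr1b3, an aldose reductase able to form prostaglandin F2α, ran from 2752 to 4034, and the prostaglandin reductase gene Ptgr2 from 1047 to 1483.

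Since Mettl3 is the transgene, its level was set against the 10 genes. Mettl3 was 2184 normalized counts in A1 and 468 to 621 in the other 8 clones. In limma's fit of each gene on log2 Mettl3, 0.324% of 16961 genes rose and 2.13% fell at an adjusted p under 0.05, and 0 of the 10 genes did either, as was also the case with limma's voom. At an unadjusted p under 0.05 there were 3 of 10, against 14.6% of all genes. The count was 1 of 10 without A1 (Ptges, against 10.4% of all genes) and 1 of 10 with voom (Ltc4s, against 10.6%). The 3 genes were Ptger4 (slope -0.45 log2 per log2 of Mettl3, limma adjusted p = 0.165), Ltc4s (0.70, limma adjusted p = 0.206) and Alox5 (-0.74, limma adjusted p = 0.274). For Ptgs2 the slope was 0.86 ± 0.62 (SE, limma adjusted p = 0.561), and it was -2.84 without A1. Of 38 pathway genes tested, 0 passed and 8 had an unadjusted p under 0.05, among them Hpgd (-2.28, limma adjusted p = 0.0812). The high end of Mettl3 is A1 alone, and so the association with Mettl3 and any other difference of that clone cannot be told apart. Without A1 no gene of the whole table passed, with 1772 at an unadjusted p under 0.05.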

How the data were processed

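Stranded mRNA libraries of 9 MPC clones were sequenced. The authors deposited log2 values per gene and library: reads scaled by 1 factor per library, plus an offset of 4. The submitters' processing notes name FastQC 0.11.9, STAR 2.7.10, RSEM 1.3.3 and GRCm38, without their roles. The annotation and the scaling software are not given in the sources used here. The 6 columns of embryonic fibroblasts from other studies were not used.

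The log2 was undone, 4 was subtracted, and reads were recovered from the step between values. The result was whole, within 0.1 read, for 100% of the nonzero values under 1000 reads, so voom on these reads was run as an alternative to limma on normalized counts. Intervals are exact Poisson intervals at 95% and, like the floor of 3 reads, cover counting error only. Depth was 12198037 to 20453901 reads. Identifiers matched RefSeq (GRCm38.p6) for 17975 of 18049 genes. No gene lengths were used, so levels were not compared between genes.

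Relations were computed on log2(normalized counts + 1) with Pearson's r and Spearman's rho. They were tested exactly over all 362880 pairings of the clones (two-sided), with Benjamini-Hochberg adjustment over 68 relations. Where clones were centred within prefixes, only pairings within a prefix were used. A marker score is the mean z-score of its markers. Slopes on log2 Mettl3 came from limma (lmFit, eBayes with a trend) over genes averaging 1 normalized count or more, with Benjamini-Hochberg adjustment over all of them. Both tests were tested on simulated data. The genes, marker lists and pathway list were chosen with earlier results of these data known. Genes named are the 10, the 12 pathway genes with the highest mean (in normalized counts, not per length) and those without a read, the 3 genes most alike to each of the 10 among those averaging 50 or more (1 or more of the 3 is printed), 3 cytokines, Mettl3 and cell type markers. Ptger1, Ptger3, Pla2g7, Dpep1, Ptgir, Tbxa2r, Ggt5, Alox15, Ptgdr2 and Ltb4r2 were added after their values were seen. Alternatives were other scalings, a pseudocount of 0.1, the deposited log2 values, leaving out A1 or 2 clones, centring within prefixes, other filters, limma without a trend and voom. The 2 clones were those farthest from the median of the first gene of each relation. Python 3.11.15, scipy 1.17.1, R 4.3.3 and limma 3.58.1 were used.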

Additional observations from a re-analysis of the deposited data

Results flagged for a closer look

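Among 26 named genes, 4 had a clone that stood apart from the other 8, judged by its gap to the nearest clone divided by the whole range (Dixon's ratio at its 95% critical value for 9 values). Chance gives about 1 in 20, and 10.0% of all genes averaging 10 normalized counts or more had such a clone. Ptgis was low in C3, at 90.9 against 733 in the next clone (ratio 0.631). Alox5 was high in C4, at 1557 against 704 (ratio 0.631). Tnf was high in A1, at 1232 against 755 (ratio 0.597). Mettl3 was high in A1, at 2184 against 621 (ratio 0.911).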

How the results depend on the processing

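Levels of the 10 genes moved by less than 1 SD under each rescaling and without A1 (30 of 30 values). Without A1 this was fixed beforehand, since leaving out 1 of 9 clones cannot move a mean by 1 SD between clones. The upper quartile factors were at most 0.0678 log2, too small to do so. These 30 values are therefore no test of stability. For 19 relations, 7 of 114 alternative values of r changed sign. All 7 came from leaving out or centring clones. The other scaling, the pseudocount and the deposited log2 values kept all 9 clones at nearly the same values, and are no test of stability. As 1 relation passed over 9 clones, the threshold says nothing of the stability of the others, and r could shrink without changing sign, as for Ptges with Ptger2 (-0.733, and -0.0343 centred within prefixes). Without the 2 clones farthest from the median, r turned to -0.295 for Ptgs1 with Hpgds, -0.0968 for Ptger2 with Ptger4 and -0.303 for Alox5 with Alox5ap. Centred within prefixes, it was -0.0608 for Ptgs1 with Hpgds, -0.616 for Ptger2 with Ptger4 and -0.00602 for Ptges with the fibroblast score. Without A1 it was -0.0463 for Ptger2 with Ptger4. Hpgds with the macrophage score lost its call without A1 (r = 0.917) and without the 2 clones (0.829), each with fewer clones. Centred within prefixes (0.847), the pairings were too few for a single relation to be called, so that loss was fixed beforehand.

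Of the genes of the whole table associated with Mettl3, 55 rose and 362 fell. Among genes averaging 50 normalized counts or more, 36 rose and 202 fell with fewer genes tested. Over the 16961 genes averaging 1 or more, 583 fell with a pseudocount of 0.1 and 24 fell with voom. The cause of these differences was not tested. Without A1, with or without prefix as a term, 0 rose and 0 fell by limma, with 464 and 1772 genes at an unadjusted p under 0.05. Slopes without A1 were -2.84 for Ptgs2, -2.02 for Ptges, 1.09 for Ptger2, 1.07 for Ptger4 and 1.31 for Hpgds, and with prefix as a term -1.44 for Ptgs2, -0.783 for Ptges, 1.35 for Ptger4, 1.51 for Alox5 and 0.427 for Hpgds, all opposite in sign to those over 9 clones. All 10 reversed slopes came from the fits without A1. The other 70 of 80 slopes kept their sign, which is no test of stability. Another filter or limma without a trend leaves a slope as it is, and the other scaling, the pseudocount and voom kept A1. None of the 10 genes was called under any alternative.

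No paired analysis was possible because the labels put the 9 clones in 1 group with no pairs. The alternative of another gene length was not run, since no lengths were used. Depth limits Ptger2 most, at 23 reads in A1.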
